A study of Drosophila melanogaster with 18 samples.

Results

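The glutathione S-transferases of Drosophila melanogaster were followed through the RNA-seq libraries of BG3 cells in which architectural proteins of chromatin had been depleted. Members were defined by symbol: every gene whose symbol begins with Gst and a class letter followed by a number, together with Mgstl and gfzf. The letters are D for Delta, E for Epsilon, O for Omega, S for Sigma, T for Theta and Z for Zeta. The family itself was chosen with earlier results of these data known. The rule found 37 of the 16727 genes of the count tables, namely 11 Delta, 14 Epsilon, 3 Omega, 1 Sigma, 4 Theta and 2 Zeta genes and the 2 genes named apart. Of these, 32 had at least 10 counts over all libraries and were tested. GstD6, GstD10, GstE5 and GstZ2, with 0 to 1 counts in each WT library, met this only through knockdown libraries. The other 5, GstD7, GstD8, GstD11, GstE4 and GstE14, had 2 to 6 counts in total.

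BG3 is a continuous line derived from the larval central nervous system. The 12 libraries fell into 4 groups of 3: WT, which was wild type BG3, and cells treated with double-stranded RNA against BEAF-32 (BEAF-32 RNAi), against Cp190 together with Chro (Cp190 RNAi Chro RNAi), or against BEAF-32 together with Dref (BEAF-32 RNAi Dref RNAi). They are called the BEAF-32 knockdown, the Cp190/Chro knockdown and the BEAF-32/Dref knockdown below. Knockdown cells received 50 ug of dsRNA and were collected after 72 h. BEAF-32 and Dref bind related DNA motifs at insulators and promoters, and Cp190 and Chro are partners found at the same borders of topologically associating domains (TADs). No control dsRNA is given for WT, so the loss of a target and the transfection of dsRNA cannot be told apart, and knockdown of Cp190 alone, Chro alone or Dref alone is not among the groups. The 3 comparisons with WT share the same control libraries. Separate cultures are not stated for the replicates of a group, and each p-value therefore weighs a difference only against the variation among these libraries, part or all of which may be technical.

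Glutathione S-transferases join the tripeptide glutathione to reactive compounds, which makes these more soluble and easier to export. In insects the Delta and Epsilon classes have expanded in tandem gene clusters and are known for detoxifying insecticides, plant compounds and products of lipid peroxidation. The Sigma, Theta, Omega and Zeta classes are shared with other animals and include enzymes of intermediary metabolism. Part of the family is induced under oxidative or electrophilic stress through the transcription factor CncC, the fly counterpart of mammalian Nrf2, which pairs with Maf-S and is held in check by Keap1. Mgstl is the microsomal, membrane-bound enzyme of the group, and gfzf joins a glutathione S-transferase domain to FLYWCH zinc fingers and acts as a nuclear factor.

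Since BEAF-32 and Dref were among the targets, the start regions of the members were searched for the Dref response element TATCGATA and for CGATA, the core of the motif that BEAF-32 binds. The contrast is shown by 5 windows of 200 bases, 150 before and 50 from the annotated start, read from the BDGP6 (dm6) assembly on the strand of the gene with matches in capitals. GstD1 is at chr3R:12369219-12369418 and GstD4 at chr3R:12373950-12374149, both in the Delta cluster, the first on the minus strand. GstO3 is at chr3L:8518735-8518934 and GstO1, on the minus strand, at chr3L:8524817-8525016. GstZ1 is at chr3R:9456497-9456696 on the minus strand. In GstD4 the capitals mark TATCG, which reads CGATA on the other strand. In GstO1 and GstZ1 they mark TATCGATA, and in GstO1 also a further TATCG before it.
GstD1: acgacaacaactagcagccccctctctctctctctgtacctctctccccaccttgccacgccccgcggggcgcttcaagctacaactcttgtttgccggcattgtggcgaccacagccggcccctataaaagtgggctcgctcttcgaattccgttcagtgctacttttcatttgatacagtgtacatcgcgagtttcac
GstD4: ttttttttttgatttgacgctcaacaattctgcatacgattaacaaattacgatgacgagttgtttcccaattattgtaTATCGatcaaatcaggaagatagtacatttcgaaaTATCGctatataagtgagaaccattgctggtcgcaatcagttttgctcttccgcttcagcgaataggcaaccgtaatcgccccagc
GstO3: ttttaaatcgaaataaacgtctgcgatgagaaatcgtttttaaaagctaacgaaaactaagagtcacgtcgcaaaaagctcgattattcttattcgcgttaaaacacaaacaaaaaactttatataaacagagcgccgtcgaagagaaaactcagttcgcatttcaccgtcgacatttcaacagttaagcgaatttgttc
GstO1: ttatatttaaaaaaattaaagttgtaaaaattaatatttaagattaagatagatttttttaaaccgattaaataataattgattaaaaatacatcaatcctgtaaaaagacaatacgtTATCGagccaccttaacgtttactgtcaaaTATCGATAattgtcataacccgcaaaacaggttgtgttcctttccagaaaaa
GstZ1: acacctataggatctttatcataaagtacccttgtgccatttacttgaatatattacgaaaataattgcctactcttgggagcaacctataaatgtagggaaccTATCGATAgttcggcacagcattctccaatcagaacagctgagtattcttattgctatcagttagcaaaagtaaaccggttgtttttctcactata

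Among 13945 start regions, from 250 bases before to 50 after each gene's start and searched on both strands, 9.36% held TATCGATA. Of the 37 members 2 did, GstO1 and GstZ1. The shorter CGATA, which is also contained in TATCGATA, was in 47.4% of all start regions and in 14 of the 37 members. In the Delta class it was in GstD4, GstD7 and GstD8 and in no other gene. Elsewhere in the family it was in GstE2, GstE4, GstE9, GstO1, GstO2, GstT1, GstT2, GstT3, GstT4, GstZ1 and Mgstl. TGACNNNGC, part of the antioxidant response element that CncC and Maf-S recognise, was in 8.63% of all start regions and, among the members, in GstE3 alone. With the window widened to 1000 bases before the start, TATCGATA was in 13.2% of all genes and in 3 members, with GstD2 added. CGATA was then in 79.4% of all genes and in 27 members, in the Delta class also in GstD2, GstD5 and GstD10, and TGACNNNGC was in 28.4% and in 5 members. TGACTCA, the site of AP-1 factors, was in 2.49% of all start regions and in GstE2 and GstE9 in the shorter window, and in 8.1% and in 7 members, among them GstD1, GstD2 and GstE9, in the longer one. A match describes these letters only and is not evidence of binding.

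Counts assigned to genes ranged from 7178403 to 12202598 a library. Replicate 3 of the BEAF-32 knockdown stood apart: compared with replicates 1 and 2, over genes with low counts, it differed by a chi-square of 12.8 and 13.4 per gene, whereas every other pair of replicates lay between 1.67 and 2.09. It was also the shallowest library and held 74.8 CPM (counts scaled to a common library size) of BEAF-32, against 41.0 and 44.6 in replicates 1 and 2 and 88.6 to 92.7 in WT. Results for the BEAF-32 knockdown are therefore given with all 3 libraries and without replicate 3. Cp190 fell from 423.0 to 436.3 CPM in WT to 287.4 to 314.7 in the Cp190/Chro knockdown, Chro from 318.2 to 338.5 to 186.5 to 204.9 CPM, and Dref, in the BEAF-32/Dref knockdown, from 203.4 to 211.4 to 127.8 to 133.7 CPM. BEAF-32 fell by 0.77 on the log2 scale in the BEAF-32 knockdown (adjusted p = 0.00777, and by 1.08 without replicate 3) and by 0.72 in the BEAF-32/Dref knockdown (0.0088). Cp190, Chro and Dref also fell where they were not targeted. BEAF-32 was at -0.31 in the Cp190/Chro knockdown and was not called (adjusted p = 0.206). Without replicate 3 of the BEAF-32 knockdown in the fit, that fall was called (-0.31, 1.26e-04). Cp190 was at -0.54, -0.54 and -0.56 in the BEAF-32, Cp190/Chro and BEAF-32/Dref knockdowns, Chro at -0.86, -0.75 and -1.01 and Dref at -0.72, -0.50 and -0.67, all called, and without replicate 3 the first values were -0.39, -0.57 and -0.51. Of the markers of the nervous system, 3 of 6 neuroblast genes and 1 of 6 neuron genes were above 1 CPM in WT, whereas 4 of 5 glial genes and 3 of 6 hemocyte genes were. None of the 5 fat body markers found reached 1 CPM in WT.

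Of the 37 members, 20 rose and 5 fell in at least 1 knockdown, as did 27.8% and 24.7% of all tested genes. The 20 included 8 Delta genes and, of the Epsilon cluster, GstE3 and GstE6 to GstE9, and GstS1, GstE12 and gfzf were lower throughout. In the BEAF-32 knockdown 18 of the 32 tested members rose and 4 fell by edgeR's quasi-likelihood test at an adjusted p under 0.05, while 18.5% of all 10545 tested genes rose and 15.7% fell. In the Cp190/Chro knockdown 15 rose and 3 fell, beside 17.9% and 15.6% of all genes. In the BEAF-32/Dref knockdown 18 rose and 4 fell, beside 21.5% and 20.3%. The upward share of the family was above that of all genes in each knockdown, and the downward share was below it. Where GstD6, GstD10 and GstZ2 were called, they count towards the upward share, although only knockdown counts brought them into the test. The median log2 fold change of the tested members was 1.33, 1.53 and 1.51 in that order, or 1.00, 0.85 and 0.85 with members at 0 in WT set to their lower bound, against 0.07, 0.02 and 0.03 for all genes. In bulk RNA a change in the number of cells that express a gene and a change in RNA per cell cannot be told apart.

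Large changes were almost all upward. A log2 fold change of at least 2 beside the adjusted p was reached by 15 members in the BEAF-32 knockdown, 12 in the Cp190/Chro knockdown and 13 in the BEAF-32/Dref knockdown, where 7.21%, 5.7% and 6.99% of all genes reached it. The 15 include GstZ2, at 0 in WT, whose lower bound of 2.58-fold is smaller than a log2 fold change of 2. A fall of that size was seen for GstS1 alone, in both combined knockdowns, where 0.844% and 1.08% of all genes fell as far. In the BEAF-32 knockdown 0.958% of all genes fell so far and no tested member did by edgeR or by DESeq2, the nearest being GstE2 (-2.92) with an unadjusted p of 0.0392. In all 3 knockdowns 14 members rose, namely GstD1, GstD2, GstD3, GstD5, GstD9, GstD10, GstE3, GstE6, GstE7, GstE8, GstE9, GstO3, GstT1 and GstT4, and 3 fell, GstE12, GstS1 and gfzf. Of all tested genes 11.4% rose and 9.97% fell in all 3, and the 3 comparisons share the WT libraries.

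**Figure D1:**
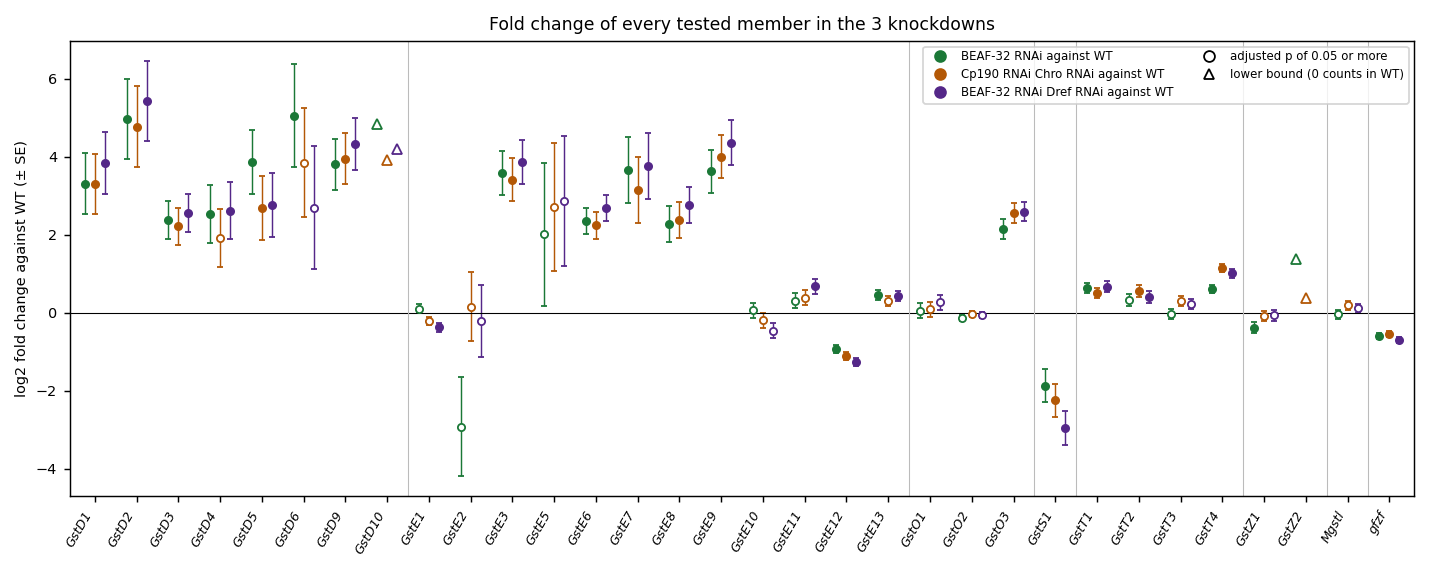
Log2 fold change against WT (y axis, with the standard error of the fit as a bar) for the 32 tested members (x axis, by class) in the 3 knockdowns. Filled points passed an adjusted p of 0.05, open points did not, and triangles give the lower bound for members at 0 in WT. The Delta genes lie above the line at 0 in every knockdown, whereas GstS1, GstE12 and gfzf lie below it.

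Replicate 3 of the BEAF-32 knockdown carried much of the size of these changes. Without it, 18 members still rose and 4 fell in the BEAF-32 knockdown, where 23.2% and 22.9% of all 10395 genes then tested did, but the number with a log2 fold change of at least 2 was 8 instead of 15, beside 6.06% of all genes, and the median log2 fold change of the members was 0.64. GstZ2 was again among the 8. The other knockdowns kept their own libraries but shared the new estimate of the spread. There 21 members were higher and 4 lower in the Cp190/Chro knockdown, with GstD4, GstD6, GstE11, GstE13, GstT3 and Mgstl added to those higher and GstE1 to those lower, and 18 and 5 in the BEAF-32/Dref knockdown, with GstE10 added to those lower. The gain was shared by the whole table, since 29.2% and 28.4% of all genes were then higher and lower in the former and 30.8% and 30.3% in the latter.

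The Delta class lies in 1 cluster of 20.8 kb on chromosome 3R, from 12364776 to 12385624. Of its 11 genes 8 were tested, GstD6 and GstD10 among them through their knockdown counts only. All 8 rose in the BEAF-32 knockdown, 6 in the Cp190/Chro knockdown and 7 in the BEAF-32/Dref knockdown. The median log2 fold changes of the tested genes were 3.83, 3.57 and 3.30. Without replicate 3 the first median was 2.20, so that the order of the knockdowns by median turned. GstD1 (FBgn0001149), which can dehydrochlorinate the insecticide DDT and whose promoter is widely used as a reporter of oxidative stress, had the highest mean CPM of the Delta genes in each knockdown, although GstD3 was above it in replicates 1 and 2 of the BEAF-32 knockdown. It was at 21.0, 21.1 and 21.1 CPM in WT and at 48.0, 47.3 and 533.9 CPM in the BEAF-32 knockdown. In the Cp190/Chro knockdown it was at 186.1, 221.9 and 216.9 CPM, and in the BEAF-32/Dref knockdown at 289.4, 303.5 and 307.1 CPM. Every knockdown library lay above every WT library, and replicate 3 of the BEAF-32 knockdown was 11.2 times the mean of the other 2. The log2 fold changes were 3.31 ± 0.78 (SE, adjusted p = 0.00746), 3.30 ± 0.78 (0.00763) and 3.83 ± 0.79 (0.00292), and that of the BEAF-32 knockdown was 1.18 ± 0.09 without replicate 3 (1.73e-18).

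GstD3, which was at 26.6, 27.9 and 25.1 CPM in WT, was also higher in every knockdown. It was at 67.4, 59.7 and 288.6 CPM in the BEAF-32 knockdown, at 109.4, 133.4 and 124.5 CPM in the Cp190/Chro knockdown, and at 153.7, 167.0 and 149.4 CPM in the BEAF-32/Dref knockdown. Its log2 fold changes of 2.38, 2.21 and 2.56 all passed (adjusted p = 0.00339, 0.00515 and 0.00175), and without replicate 3 the first was 1.26 (7.96e-20). As for GstD1, the groups did not overlap with WT, and replicate 3 lay above all other libraries.

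GstD9 started lower, at 4.81, 3.85 and 7.01 CPM in WT. It was at 27.9, 25.6 and 169.5 CPM in the BEAF-32 knockdown, at 75.3, 88.8 and 80.9 CPM in the Cp190/Chro knockdown and at 103.1, 109.8 and 102.8 CPM in the BEAF-32/Dref knockdown. Its log2 fold changes were 3.80, 3.95 and 4.32 (adjusted p = 0.0014, 0.0011 and 5.23e-04), or 2.34 in the BEAF-32 knockdown without replicate 3 (1.25e-22). By mean CPM GstD9 was behind GstD1 and GstD3 in every group, and no knockdown library was in the range of WT.

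GstD2 was nearly silent in WT, at 0.577, 0.458 and 0.334 CPM. In the BEAF-32 knockdown it was at 4.24, 2.23 and 38.5 CPM, in the Cp190/Chro knockdown at 11.5, 12.3 and 14.1 CPM, and in the BEAF-32/Dref knockdown at 18.2, 21.3 and 20 CPM. The log2 fold changes of 4.97, 4.77 and 5.42 had standard errors of 1.02 to 1.03 and passed in each knockdown (adjusted p = 0.00385, 0.00494 and 0.00173), and the first was 2.79 without replicate 3 (1.48e-08). These were larger values than those of GstD1, from a level that was lower by far.

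GstD5, of which WT had 1.06, 0.642 and 1.09 CPM, was at 3.18, 4.65 and 34.0 CPM in the BEAF-32 knockdown, and at 5.06 to 7.43 CPM in the 6 libraries of the combined knockdowns. It rose by 3.86, 2.68 and 2.77 on the log2 scale (adjusted p = 0.00413, 0.0263 and 0.0187), and by 2.07 in the BEAF-32 knockdown without replicate 3 (9.51e-07). Its calls in the combined knockdowns rest on every WT library: without any 1 of replicates 1, 2 and 3 of WT the adjusted p was 0.0685, 0.0871 and 0.0689 in the Cp190/Chro knockdown and 0.0507, 0.0656 and 0.0511 in the BEAF-32/Dref knockdown. In the former it was also 0.0658 and 0.0549 without replicates 2 and 3 of that knockdown. GstD4, the Delta gene with the pair of CGATA cores printed above, had 1.15, 0.55 and 0.167 CPM in WT and 1.59, 1.36 and 8.1 CPM in the BEAF-32 knockdown. It was at 2.62, 2.41 and 1.97 CPM in the Cp190/Chro knockdown and at 4.25, 2.85 and 4.22 CPM in the BEAF-32/Dref knockdown. The knockdown libraries were again all above WT, but by less: the log2 fold changes of 2.52 and 2.61 in the knockdowns that included BEAF-32 passed (adjusted p = 0.0212 and 0.0141) and that of 1.91 in the Cp190/Chro knockdown did not (0.0653). Without replicate 3 of WT the calls of GstD4 were lost in both (2.06, adjusted p = 0.0765, and 2.14, 0.0553), as was that in the BEAF-32 knockdown without replicate 2 of WT (2.45, 0.0683).

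GstD10 had no count in any WT library and was present in all 9 knockdown libraries. It was at 2.12, 2.81 and 2.84 CPM in the BEAF-32 knockdown, at 0.959, 0.902 and 2.21 CPM in the Cp190/Chro knockdown, and at 0.708, 2.35 and 1.89 CPM in the BEAF-32/Dref knockdown. With WT set to a floor of 3 counts in its libraries together, since a count of 0 does not show absence, GstD10 was at least 28.7-fold higher in the first of these groups, 15.1-fold in the second and 18.3-fold in the last, and it passed in each knockdown (adjusted p = 4.21e-04, 0.0012 and 7.43e-04). Unlike the other Delta genes described so far, it was not raised further in replicate 3 of the BEAF-32 knockdown, which was 1.15 times the mean of replicates 1 and 2. GstD6 had 0, 1 and 0 counts in WT and 5, 11 and 19 counts in the BEAF-32 knockdown, where it passed (adjusted p = 0.0128). It had 13, 5 and 2 counts in the Cp190/Chro knockdown and 0, 1 and 6 in the BEAF-32/Dref knockdown, and passed in neither.

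**Figure D2:**
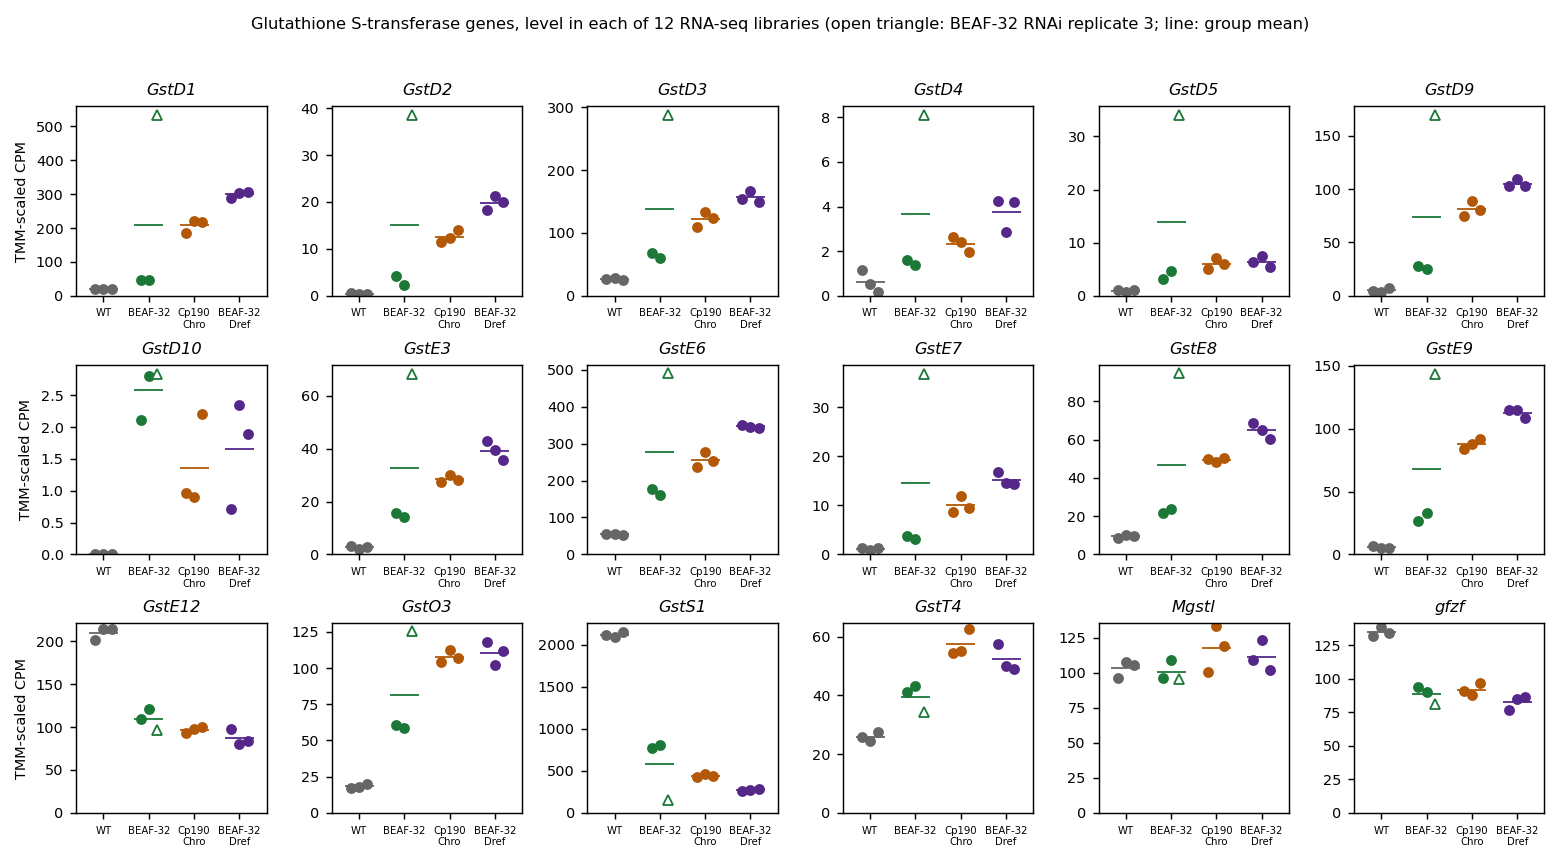
CPM (linear y axis) in each of the 12 libraries for the 18 members named by rule, with the groups on the x axis. A short line marks the group mean and an open triangle replicate 3 of the BEAF-32 knockdown. The triangle lies far above its 2 companions for GstD1, where it is at 533.9 CPM against 48.0 and 47.3, and far below them for GstS1, at 156.1 against 772.2 and 805.7.

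The Epsilon class had 14 genes. GstE1 to GstE10 lie in 1 cluster of 13.2 kb on chromosome 2R, from 18396638 to 18409835, and the other genes lie elsewhere. Of the 9 tested genes in the cluster, GstE3, GstE6, GstE7, GstE8 and GstE9 rose in every knockdown, and the cluster had median log2 fold changes of 2.27, 2.38 and 2.76, the first being 1.24 without replicate 3. GstE6 (FBgn0063494) was the most abundant of them. It was at 55.9, 54.6 and 51.7 CPM in WT, and at 176.2, 161.3 and 491.7 CPM in the BEAF-32 knockdown. The Cp190/Chro knockdown had 237.3, 278.2 and 252.2 CPM, and the BEAF-32/Dref knockdown 351.4, 345.6 and 343.5 CPM. All 9 knockdown libraries were above WT. Its log2 fold changes were 2.35, 2.24 and 2.68, each ± 0.34 (SE, adjusted p = 4.17e-04, 5.61e-04 and 1.47e-04), and without replicate 3 the first was 1.64.

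GstE9 was at 6.45, 5.32 and 4.68 CPM in WT and at 26.8, 33.1 and 144.0 CPM in the BEAF-32 knockdown. It was at 83.5, 87.7 and 91.7 CPM in the Cp190/Chro knockdown and at 114.7, 115.3 and 108.4 CPM in the BEAF-32/Dref knockdown, a log2 fold change of 3.62, 4.0 and 4.36 (adjusted p = 6.24e-04, 3.32e-04 and 1.55e-04). Without replicate 3 the rise in the BEAF-32 knockdown was 2.46. Of the tested genes of the cluster, GstE9 had the largest fold change in both combined knockdowns. Its exons overlap on the opposite strand those of imd, an adaptor of the immune deficiency pathway, which itself rose by 0.46, 0.65 and 0.79 (adjusted p = 0.00661, 8.39e-04 and 1.93e-04), and the part of such reads in either gene was not tested.

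GstE3 was at 3.18, 2.02 and 2.84 CPM in WT and at 15.5, 14.1 and 68.5 CPM in the BEAF-32 knockdown, and at 27.4 to 29.9 CPM in the Cp190/Chro knockdown and 35.8 to 42.9 CPM in the BEAF-32/Dref knockdown. GstE8 went from 8.76, 10.3 and 9.52 CPM in WT to 21.5, 23.5 and 94.8 CPM in the BEAF-32 knockdown, and lay at 48.3 to 50.4 and 60.4 to 68.6 CPM in the combined knockdowns. GstE7 was scarce in WT, at 1.25, 0.825 and 1.25 CPM, and was at 3.82, 3.2 and 36.8 CPM in the BEAF-32 knockdown, then at 8.72 to 11.9 and 14.4 to 16.7 CPM. For these 3 genes, too, every knockdown library was above WT. The log2 fold changes were 3.58, 3.41 and 3.87 for GstE3, 2.27, 2.38 and 2.76 for GstE8, and 3.66, 3.15 and 3.76 for GstE7, with adjusted p from 3.47e-04 to 0.0151. In the BEAF-32 knockdown without replicate 3 they were 2.46, 1.24 and 1.64. The rise of GstE7 in the Cp190/Chro knockdown was no longer called without replicate 2 of WT (2.98, adjusted p = 0.0578).

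The genes at the end of the cluster that holds GstE10, GstE1 and GstE2 did not rise. GstE1 was at 36.9, 42.6 and 35.7 CPM in WT and 46.2, 40.5 and 36.7 in the BEAF-32 knockdown. It was at 29.6, 33.9 and 36.3 CPM in the Cp190/Chro knockdown and at 28.3, 29.6 and 30.9 CPM in the BEAF-32/Dref knockdown, where it fell (log2 fold change -0.38, adjusted p = 0.0218). GstE10, whose exons overlap those of GstE1 on the opposite strand, had means of 8.03, 8.36, 6.99 and 5.82 CPM in WT and the 3 knockdowns and passed in none. GstE2, next to GstE1, had 10, 6 and 6 counts in WT against 0, 0 and 2 in the BEAF-32 knockdown, 16, 5 and 4 in the Cp190/Chro knockdown and 10, 0 and 6 in the BEAF-32/Dref knockdown, and GstE5 had 0 to 6 counts a library. Neither passed, although GstE2 did so in the BEAF-32 knockdown without replicate 3 (adjusted p = 0.00359), where its 2 libraries were at 0.

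Outside the cluster, GstE12 (chromosome 2R, 24766718 to 24768172) was the most abundant Epsilon gene in WT and fell in each knockdown. It was at 201.6, 214.4 and 214.0 CPM in WT and at 109.2, 121.4 and 96.4 CPM in the BEAF-32 knockdown. It was at 93.5, 97.7 and 100.5 CPM in the Cp190/Chro knockdown and at 97.6, 80.0 and 83.4 CPM in the BEAF-32/Dref knockdown. The log2 fold changes of -0.94, -1.11 and -1.27, each ± 0.10 (SE), had adjusted p of 4.31e-05, 1.32e-05 and 4.57e-06, and replicate 3 of the BEAF-32 knockdown stood close to its companions. CG3894, which overlaps GstE12 on the opposite strand, fell less, by 0.34, 0.33 and 0.54. GstE11 had means of 51.6 CPM in WT and 64.3, 67.0 and 82.8 CPM in the knockdowns and rose in the BEAF-32/Dref knockdown (0.68, adjusted p = 0.0156). GstE13 rose by 0.45 in the BEAF-32 knockdown (0.0225) and 0.43 in the BEAF-32/Dref knockdown (0.0217), and was at 0.29 in the Cp190/Chro knockdown (0.104).

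**Figure D3:**
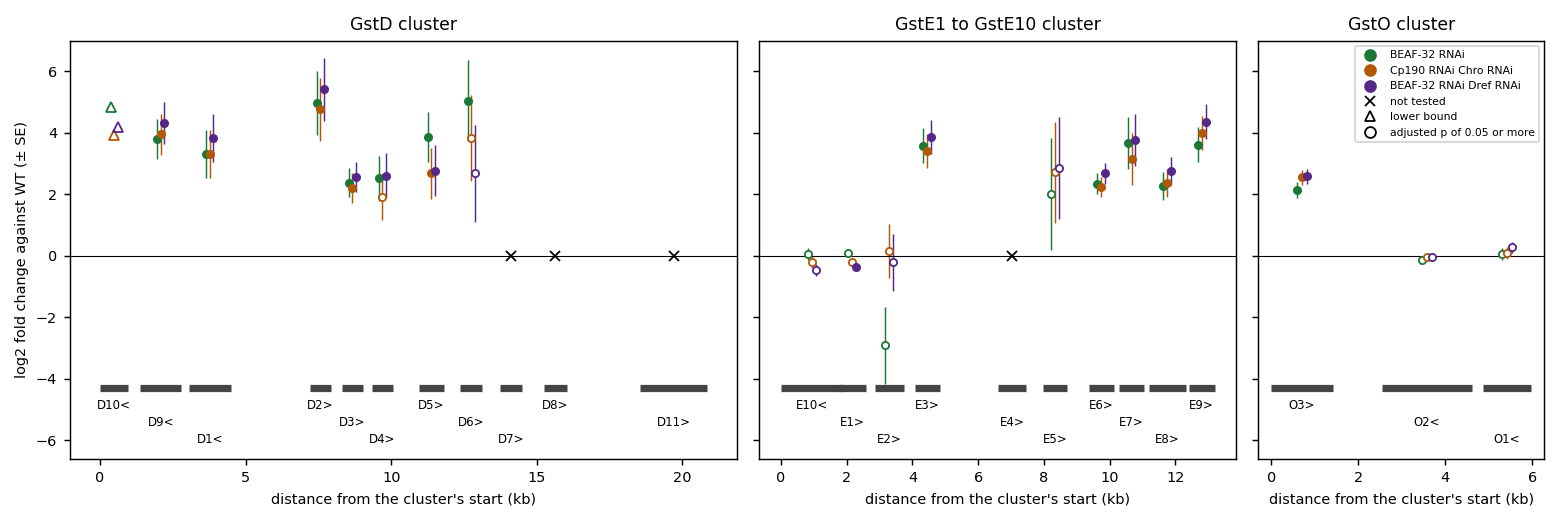
Log2 fold change against WT (y axis) of the members along the Delta, Epsilon and Omega clusters, plotted by distance in kb from the first gene of each cluster, with 1 marker per knockdown and a cross for members with too few counts to be tested. In the Epsilon cluster GstE3 and GstE6 to GstE9 lie at 2.24 or higher in every knockdown, whereas GstE1 lies at 0.10, -0.21 and -0.38.

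GstS1 (FBgn0010226, chromosome 2R, 17093246 to 17099501, minus strand), the sole Sigma gene, is a major glutathione S-transferase of flight muscle and acts on the lipid peroxidation product 4-hydroxynonenal. It was by far the most abundant member in WT, at 2116, 2090 and 2158 CPM. It was at 772.2, 805.7 and 156.1 CPM in the BEAF-32 knockdown, at 432.3, 466.6 and 434.2 CPM in the Cp190/Chro knockdown, and at 265.8, 273.5 and 283.0 CPM in the BEAF-32/Dref knockdown. Every knockdown library lay far below every WT library, and replicate 3 of the BEAF-32 knockdown was the lowest of all 12. The log2 fold changes were -1.87 ± 0.42 (SE, adjusted p = 0.00575), -2.25 ± 0.43 (0.00229) and -2.95 ± 0.44 (3.89e-04), and -1.43 in the BEAF-32 knockdown without replicate 3. The mean of WT was thus 3.67, 4.77 and 7.74 times that of the knockdowns. Marker sums of other cell types also moved between the groups. The 5 muscle markers, of which 1 was above 1 CPM in WT, summed to 175.2 to 183.1 CPM in WT, 140.3 to 655.2 in the BEAF-32 knockdown, 163.1 to 186.7 in the Cp190/Chro knockdown and 142.6 to 174.1 in the BEAF-32/Dref knockdown, the last below WT in every library. In WT and the same 3 groups, the hemocyte markers summed to 818.3 to 847.5, 606.6 to 876.6, 624.8 to 710.0 and 629.5 to 649.3 CPM. The glial markers summed to 582.8 to 596.8, 609.4 to 737.2, 759.1 to 774.6 and 686.5 to 713.0 CPM, and the neuroblast markers to 41.9 to 42.5, 28.0 to 84.2, 21.9 to 26.9 and 30.7 to 31.8 CPM. The neuron markers summed to 75.6 to 80.6, 75.4 to 113.5, 97.4 to 116.0 and 104.5 to 110.9 CPM. Those of gut and Malpighian tubule were scarce, at 1.1 to 2.31, 4.46 to 8.82, 4.68 to 6.01 and 4.14 to 5.82 CPM. Single markers did not all follow these sums. In the BEAF-32, Cp190/Chro and BEAF-32/Dref knockdowns 1, 2 and 2 muscle markers were called higher and 0 lower. Of the neuroblast markers 3, 2 and 2 were called higher and 1 lower in each. For glia 1, 1 and 2 were higher and 1 lower in each. For hemocytes 2, 0 and 0 were higher and 0, 0 and 1 lower. For neurons 0, 1 and 1 were higher and 0 lower, and for gut and tubule 2, 1 and 2 higher and 0 lower. No fat body marker was called. Of all tested genes 18.5%, 17.9% and 21.5% were higher and 15.7%, 15.6% and 20.3% lower. The part of these markers in the levels of GstS1 and the other members was not tested.

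In the Omega class, which includes dehydroascorbate reductases and thiol transferases, GstO3 rose in every knockdown and its neighbours GstO1 and GstO2 did not. GstO3 was at 17.3, 18.2 and 19.7 CPM in WT and at 60.5, 58.6 and 125.5 CPM in the BEAF-32 knockdown. It was at 104.4, 112.5 and 106.7 CPM in the Cp190/Chro knockdown and at 118.3, 102.1 and 111.6 CPM in the BEAF-32/Dref knockdown. The log2 fold changes were 2.14, 2.55 and 2.59, each ± 0.25 (SE), with adjusted p of 8.73e-05, 2.20e-05 and 1.84e-05, and 1.69 in the BEAF-32 knockdown without replicate 3. GstO1, whose start region holds the TATCGATA printed above, had means of 18.8 CPM in WT and 19.4, 20 and 22.7 CPM in the knockdowns, and GstO2 97.5, 89.3, 95.1 and 94.3 CPM. Their log2 fold changes lay between -0.13 and 0.27 with standard errors of 0.08 and 0.19, and none passed. The 3 genes share a cluster of 6.0 kb on chromosome 3L, from 8518885 to 8524866.

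The Theta class moved by less. GstT4 (chromosome X, 13404749 to 13409323) was at 25.7, 24.4 and 27.6 CPM in WT and at 41.0, 43.1 and 34.4 CPM in the BEAF-32 knockdown. It was at 54.5, 55.0 and 62.6 CPM in the Cp190/Chro knockdown and at 57.6, 50.1 and 48.9 CPM in the BEAF-32/Dref knockdown, and rose by 0.61, 1.15 and 1.01 on the log2 scale (adjusted p = 0.00179, 2.13e-05 and 4.62e-05). Here replicate 3 of the BEAF-32 knockdown was below its companions. GstT1 rose from a mean of 62.9 CPM to 98.3, 89.7 and 100.1 CPM (log2 fold change 0.64, 0.51 and 0.67). GstT2 rose in the Cp190/Chro knockdown (0.56, adjusted p = 0.0127) and in the BEAF-32/Dref knockdown (0.40, 0.0489), whereas its 0.33 in the BEAF-32 knockdown did not pass. GstT3 was at -0.03, 0.30 and 0.22 and passed in none.

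GstZ1, the Zeta enzyme that isomerises maleylacetoacetate in the breakdown of tyrosine and the second gene with a TATCGATA, had a mean of 29.8 CPM in WT, 22.7 in the BEAF-32 knockdown, 28.0 in the Cp190/Chro knockdown and 28.4 in the BEAF-32/Dref knockdown. Its fall in the BEAF-32 knockdown (-0.39, adjusted p = 0.0465) was no longer called without replicate 3 (-0.26, 0.0622). GstZ2 had no count in WT and 2, 5 and 0 counts in the BEAF-32 knockdown, at least 2.58-fold more than that floor of 3 counts (adjusted p = 0.0468), and 0 to 2 counts in the other libraries.

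Mgstl (FBgn0025814, chromosome X, 21042125 to 21044107) was the one single-member group that passed in no knockdown. It was at 96.2, 107.5 and 105.5 CPM in WT and at 96.3, 108.9 and 95.8 CPM in the BEAF-32 knockdown. It was at 100.3, 133.4 and 118.9 CPM in the Cp190/Chro knockdown and at 109.4, 123.1 and 101.8 CPM in the BEAF-32/Dref knockdown, so that every knockdown overlapped with WT. The log2 differences of -0.04, 0.19 and 0.11 had a standard error of 0.11. The difference in the Cp190/Chro knockdown was called without replicate 3 of the BEAF-32 knockdown (0.18, adjusted p = 0.0189). Of the 50-base stretches in its exons, 15% occur more than once in the genome sequence. Its level is therefore less certain than that of the other members.

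gfzf (FBgn0250732, chromosome 3R, 7145880 to 7150968) fell in every knockdown. It was at 131.7, 138.2 and 133.9 CPM in WT and at 93.8, 90.4 and 81.2 CPM in the BEAF-32 knockdown. It was at 90.7, 87.8 and 96.9 CPM in the Cp190/Chro knockdown and at 76.8, 84.6 and 86.3 CPM in the BEAF-32/Dref knockdown. No knockdown library overlapped with WT, and the log2 fold changes were -0.60, -0.55 and -0.71 (adjusted p = 2.18e-04, 4.15e-04 and 6.26e-05).

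Summed over classes, the family shifted from Sigma to Delta and Epsilon. The Delta genes together held 54.6 to 55.1 CPM in WT, 155.0, 144.8 and 1079 CPM in the BEAF-32 knockdown, 392.1 to 467.6 CPM in the Cp190/Chro knockdown and 575.8 to 614.5 CPM in the BEAF-32/Dref knockdown. The Epsilon genes held 402.3 to 424.6 CPM in WT, 505.1, 506.8 and 1099 CPM in the BEAF-32 knockdown, 625.7 to 712.7 CPM in the Cp190/Chro knockdown and 805.7 to 861.0 CPM in the BEAF-32/Dref knockdown. GstS1 alone made up 67.3 to 68.6% of all family counts in WT, but 5.27 to 39.9%, 19.4 to 20.9% and 11.3 to 12.2% in the knockdowns. The total of the family was therefore lower in every knockdown library (1999 to 2960 CPM) than in WT (3085 to 3170 CPM), while the total without GstS1 was higher (1212 to 2804 CPM against 968.8 to 1014 CPM).

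**Figure D4:**
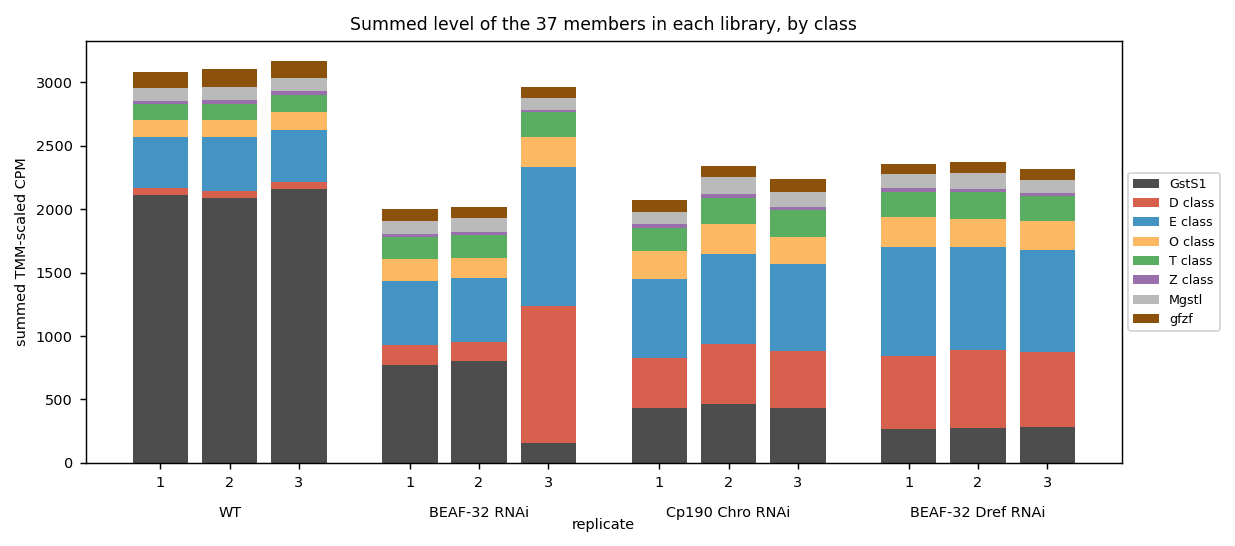
Summed CPM of the family (y axis, from 0) in each of the 12 libraries (x axis), stacked by class. The Sigma block shrinks from 2090 to 2158 CPM in WT to 265.8 to 283.0 CPM in the BEAF-32/Dref knockdown, and the Delta block grows from 54.6 to 55.1 CPM to 575.8 to 614.5 CPM.

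To compare levels between genes, CPM were divided by exon length in kb. In WT the order was GstS1 at 932.4 CPM per kb, GstE12 at 150.2, Mgstl at 87.1, GstE6 at 72.0 and GstT1 at 63.1. In the Cp190/Chro knockdown it was GstE6 at 340.7, GstD1 at 247.1, GstS1 at 195.3 and GstD3 at 164.1 CPM per kb. In the BEAF-32/Dref knockdown GstE6 led at 461.9, followed by GstD1 at 355.9, GstD3 at 210.1, GstE9 at 143.1, GstD9 at 133.9, GstO3 at 125.6 and GstS1 at 120.5 CPM per kb. The member with the highest level in WT was thus at rank 7 in that knockdown. In the BEAF-32 knockdown the means of GstS1 at 254.1 and GstD1 at 248.8 CPM per kb rest on replicate 3 and have no settled order.

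Whether the knockdowns differed from each other depended on replicate 3 of the BEAF-32 knockdown. With all libraries, GstE1 was lower in the BEAF-32/Dref knockdown than in the BEAF-32 knockdown (-0.48, adjusted p = 0.0343), where 5.74% of all genes differed, and GstT4 was higher in the Cp190/Chro knockdown than in the BEAF-32 knockdown (0.54, 0.0139), where 6.9% did. No other tested member passed in these contrasts, in which 7 and 4 members had an unadjusted p under 0.05. DESeq2 called 3 and 1 and gave no adjusted p for 6 members in each, among them GstD1, GstD2 and GstD9. Between the combined knockdowns 0% of all genes and no member passed by edgeR, with 405 genes and 0 members at an unadjusted p under 0.05. DESeq2 called 6 genes and 0 members there, but gave no adjusted p for 10 members.

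Without replicate 3 the combined knockdowns stood apart from the BEAF-32 knockdown. In the BEAF-32/Dref knockdown 16 members were then higher and 4 lower than in the BEAF-32 knockdown, beside 21.4% and 21.5% of all genes. In the Cp190/Chro knockdown 13 were higher and 4 lower, beside 20.1% and 17.8%. Between the combined knockdowns 10 members were higher and 1 lower in the BEAF-32/Dref knockdown, beside 5.9% and 6.91%. GstD1 differed by 2.65, 2.12 and 0.52 on the log2 scale in these 3 contrasts, GstE9 by 1.90, 1.54 and 0.36, and GstS1 by -1.53, -0.83 and -0.70, all called. GstO3 was higher in both combined knockdowns by 0.89 and 0.85, and the 2 of them differed by 0.04, which was not called. With only 2 libraries left in the BEAF-32 knockdown, these contrasts rest on replicates 1 and 2 alone.

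**Figure D5:**
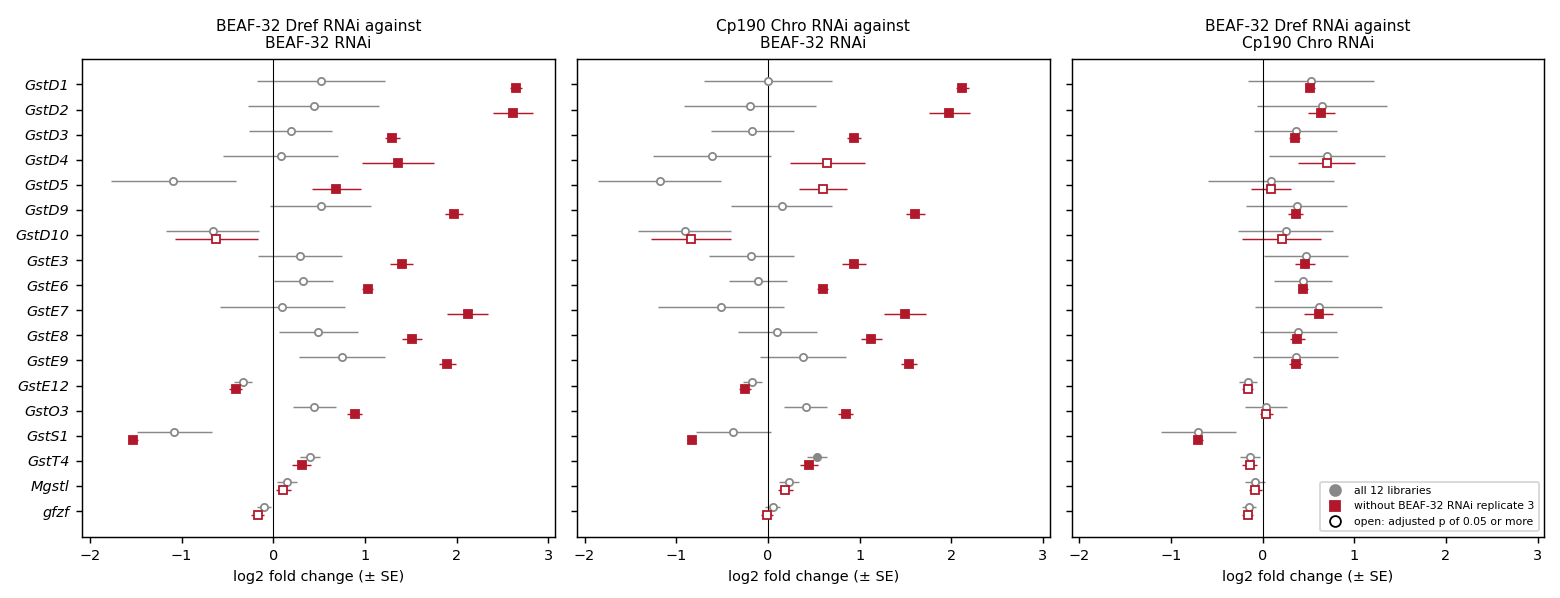
Log2 difference between knockdowns (x axis, with its standard error) for the members named by rule (y axis), with all 12 libraries in grey and without replicate 3 of the BEAF-32 knockdown in red. For GstD1 in the BEAF-32/Dref knockdown against the BEAF-32 knockdown the red point is at 2.65, and for GstS1 at -1.53.

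Within 50 kb of the Delta cluster lie 37 genes that are no members, of which 17 were tested: 3 rose and 2 fell in the BEAF-32 knockdown, 3 rose and 2 fell in the Cp190/Chro knockdown, and 4 rose and 2 fell in the BEAF-32/Dref knockdown, with medians of 0.08, 0.04 and 0.16. The upward shares were near those of all genes given above, and 1 of the genes had a log2 fold change of at least 2, in the BEAF-32/Dref knockdown. Around the Epsilon cluster 7 of 29 genes were tested, and 1 to 2 rose and 1 to 2 fell in each knockdown. Around the Omega cluster 11 of 17 were tested, of which 1, 3 and 3 rose and 3, 1 and 2 fell, with 1 at a log2 fold change of at least 2 in each combined knockdown.

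In the Hi-C maps of the knockdowns, for which 2 replicates had been merged before TADs and loops were called, the Delta cluster lay whole within 1 TAD. This TAD was 114.7 kb long in the BEAF-32 knockdown, 245.5 kb in the Cp190/Chro knockdown and 632.9 kb in the BEAF-32/Dref knockdown, where 2550, 2156 and 1410 TADs were listed in all. The Epsilon cluster also lay within 1 TAD, of 227.4, 66.6 and 464.8 kb, and the Omega cluster within TADs of 126.3, 66.1 and 362.5 kb. GstS1 spanned a TAD border in all 3 lists, 298 bp inside its 5′ end. GstE14, GstT3 and GstZ2 spanned one in the list of the BEAF-32 knockdown and GstZ1 in that of the Cp190/Chro knockdown. Of 13945 genes, 11%, 7.97% and 3.05% had their 5′ end within 500 bp of a border in the 3 lists. Among the members these were GstS1, GstT1 and GstT3 in the BEAF-32 knockdown, GstS1 and GstZ1 in the Cp190/Chro knockdown, and GstS1 alone in the BEAF-32/Dref knockdown. Maps of WT were not analysed here, so a border or loop cannot be called gained or lost.

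Of the listed loops, at 2 kb resolution, 1 in the Cp190/Chro knockdown joined parts of the Delta cluster 16 kb apart. Its anchors at 12364001 to 12366000 and 12380001 to 12382000 on chromosome 3R had 63 observed contacts, with a false discovery rate of 0.00691 against the surrounding pixels. The Omega cluster was at an anchor of a loop of 50 kb with 32 contacts in the same knockdown and of 54 kb with 23 contacts in the BEAF-32/Dref knockdown. GstE12 was at anchors of loops of 434 and 358 kb in the Cp190/Chro knockdown. No member was at a loop anchor in the list of the BEAF-32 knockdown, which held 1179 loops against 2154 and 787.

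Of 16 genes of glutathione synthesis, recycling and their regulators, 13 were tested and the other 3, GS, CG32495 and Trxr-2, had no count in any library. This does not show absence, since reads without a unique alignment were not counted, and the part of such reads was not tested. In the BEAF-32 knockdown 6 rose and 1, CG4829, fell (-0.85, adjusted p = 0.012), beside 18.5% and 15.7% of all tested genes. In the Cp190/Chro knockdown 4 rose and 0 fell, beside 17.9% and 15.6%. In the BEAF-32/Dref knockdown 8 rose and 0 fell, beside 21.5% and 20.3%. The median log2 fold changes were 0.38, 0.48 and 0.60, against 0.07, 0.02 and 0.03 for all genes. CG17636, called in both knockdowns that included BEAF-32, had 0 counts in WT and 1 to 2 counts a library there. Gclc, the catalytic subunit of glutamate-cysteine ligase and the rate-limiting enzyme of glutathione synthesis, was at 92.9 to 98.0 CPM in WT and at 242.9, 247.6 and 314.7 CPM in the BEAF-32 knockdown. It was at 235.4 to 244.1 CPM in the Cp190/Chro knockdown and 272.2 to 279.0 CPM in the BEAF-32/Dref knockdown (log2 fold change 1.48, 1.32 and 1.52, adjusted p = 1.16e-06, 2.84e-06 and 1.05e-06). Gclm, the modifier subunit of the same enzyme, was at 0.06, 0.06 and 0.07 and passed in none. Of the regulators, Keap1 rose by 1.44, 1.24 and 1.55. The gene cnc, which encodes CncC, was at 0.38, 0.38 and 0.53 and passed in the last (adjusted p = 0.0397), but without replicate 3 of the BEAF-32 knockdown it was at 0.04 in that knockdown and also passed in the Cp190/Chro knockdown (0.38, 2.03e-08). Trxr-1, the thioredoxin reductase that also recycles oxidised glutathione in flies, rose by 0.70, 0.48 and 0.60, and Men, a malic enzyme that supplies NADPH, rose by 0.44, 0.84 and 0.83. Leaving out replicate 3 gave 1.36 for Gclc, 0.96 for Keap1, 0.43 for Trxr-1, 0.34 for Men and -0.56 for CG4829 in the BEAF-32 knockdown, and all were called. PHGPx, a glutathione peroxidase, was then at 0.25 instead of 0.78, and Ggt-1 was lower (-1.26, adjusted p = 0.00207) instead of at -0.30 (0.642).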

How the data were processed

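Poly(A)-selected RNA of BG3 cells was sequenced in 3 libraries for each of 4 groups. Per the submitters' notes and the study's methods, trimming was by Trimmomatic 0.39 and alignment to dm6 by TopHat2 2.1.2, which calls Bowtie2 2.3.4.1; Picard then took out duplicates. The authors deposited raw gene counts from HTSeq, in its default stranded mode; no source used here gives whether the libraries keep strand. Of the reads, 39.4 to 44.1% were in no gene and stayed out of library sizes. HTSeq also set aside those without a unique alignment, 16 to 17% in WT and 21 to 29.5% in the knockdowns. The highest share was in replicate 3 of the BEAF-32 knockdown. A command list of the study aligned replicate 2 with a mate file of replicate 1; in the counts, replicates 1 and 2 of each group differed as other pairs did. For Hi-C, the authors merged 2 replicates per knockdown and deposited TADs with a separation score (HiCExplorer) and HiCCUPS loops with the observed contact signal and FDR p-values. These lists were described, not tested.

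Members were tested with edgeR 4.0.16 (R 4.3.3) by its quasi-likelihood test. All 12 libraries entered 1 fit, scaled by TMM and without covariates. Genes needed a total of 10 counts, which left 10545, and Benjamini-Hochberg adjustment ran over these. The standard error is the log2 fold change divided by the square root of F. The script was tested on simulated data. CPM are TMM-scaled. Start regions, exon lengths and overlaps come from the Ensembl BDGP6 annotation, in which all 37 members matched. Values in every library are given for members called in any knockdown whose log2 fold change was 1 or more in size, with 10 or more counts in each library of the higher group, for GstS1, Mgstl and gfzf, and for the 3 most abundant members. Members and lists were chosen with earlier results of these data known. Alternatives were DESeq2 1.42.0, other filters and scalings, a replicate block, groups fitted in pairs, and each library left out.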

Additional observations from a re-analysis of the deposited data

How the results depend on the processing

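Of 54 log2 fold changes of named members against WT, 50 were called, and over 1068 alternative values 1043 kept their direction and side of the threshold, 19 lost the call, 6 gained it and 0 reversed. DESeq2 gave no adjusted p for 12 further values, those of GstD1, GstD2, GstD9 and GstE7 in every knockdown. It thus gave no verdict on these 4 genes. It called 13, 13 and 14 members higher against WT. With single libraries left out, 14 to 18 members were higher and 3 to 4 lower in the BEAF-32 knockdown, 12 to 21 and 3 to 4 in the Cp190/Chro knockdown, and 14 to 18 and 3 to 5 in the BEAF-32/Dref knockdown. Between knockdowns 0 to 20 members differed for the BEAF-32/Dref knockdown against the BEAF-32 knockdown, 0 to 17 for the Cp190/Chro knockdown against the BEAF-32 knockdown and 0 to 11 between the combined knockdowns, the upper values being those without replicate 3 of the BEAF-32 knockdown. Fitting each pair of groups alone gave 10 members higher and 2 lower in the BEAF-32 knockdown, 11 different between the combined knockdowns, and 0 in the contrasts with the BEAF-32 knockdown. The calls of GstD1, GstD3, GstD4, GstD5, GstE7, GstE8 and GstS1 in the BEAF-32 knockdown were lost there, with adjusted p between 0.0509 and 0.112. The BEAF-32/Dref knockdown differed from the BEAF-32 knockdown in 3 members by DESeq2, in 2 with filterByExpr, and in 0 with no filter. With replicates 1 and 2 of each knockdown summed, 0 members differed between knockdowns.

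Same-numbered replicates did not deviate together: 18 correlations lay between -0.08 and 0.04, and 5 of 18 were the best for their number. No shared deviation by number was thus seen, which cannot show whether same-numbered libraries were prepared together. With the replicate block 17 members were higher and 4 lower in the BEAF-32 knockdown, 15 and 3 in the Cp190/Chro knockdown, and 17 and 4 in the BEAF-32/Dref knockdown, and 0, 1 and 0 differed between knockdowns. The cause was not tested for any of these shifts. Members with few counts, GstD6, GstE2, GstE5, GstZ2 and the 5 untested genes, cannot show a difference at this depth unless it is large.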
